A study of Mus musculus with 12 samples.

Results

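The liver enzymes that switch off, convert or dispose of steroid hormones were followed in 4 mouse liver libraries. The list of 10 genes, *Sult1e1*, *Hsd17b6*, *Hsd3b5*, *Hsd3b7*, *Hsd17b2*, *Srd5a1*, *Akr1d1*, *Akr1c6*, *Cyp7b1* and *Sts*, was chosen from what these same libraries showed, with *Sult1e1* and *Hsd17b6* as the lead genes, which had the largest changes with CORT. The members' changes are therefore a description of genes picked for such changes, and no test was made of them. Of the 10 members, 9 had an entry among the 22252 gene entries of the liver data, and these 9 were above 0 in all 4 liver libraries, as were 12485 entries in all. *Sts*, the steroid sulfatase, was not analysed here.

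The libraries came from male C57BL/6J mice that were homozygous for a floxed exon 3 of *Nr3c1*, the glucocorticoid receptor (GR) gene. GRfl/fl mice carried no Cre, and GR-mKO mice carried a Cre driven by the promoter of *Acta1*, skeletal alpha-actin, which deletes the receptor in myofibers and is not directed at the liver. From 8 weeks of age, mice drank either vehicle (1% ethanol) or 100 µg/mL corticosterone (CORT, the main rodent glucocorticoid) in that vehicle for 4 weeks. Each group was a single library made from the pooled RNA of 3 mice, so the groups had no replicates, no p-value could be computed, and the spread between mice was not seen. All values below are CPM, the count of an entry scaled to a library total of 1000000, and a gene was said to rise or fall when it differed by at least 2-fold between 2 libraries after 0.5 CPM was added to both. Fold values are ratios of CPM without that addition, with 95% exact (Clopper-Pearson) intervals that cover counting error only.

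The liver is the main site at which circulating steroids are cleared. Reductases of the SRD5A and AKR families saturate the steroid ring, hydroxysteroid dehydrogenases of the HSD3B and HSD17B families interconvert hydroxyl and keto groups, cytochrome P450 enzymes hydroxylate the nucleus, and sulfotransferases add a sulfate group that blocks receptor binding and aids excretion. Several of these reactions also serve the synthesis of bile acids from cholesterol. In the mouse, many of these genes are expressed unequally in male and female liver.

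Promoter sequences of RefSeq (build GRCm38.p6) were found for 7 of the 9 measured members, and the 250 bases before the start are shown for the member that rose most, the one that fell most and the other member that rose. Capitals mark AGGTCA, a short site bound by many nuclear receptors, which is read on the opposite strand in the matches below. The windows lie at chr5:87591612-87591861 (minus strand), chr10:128007612-128007861 (minus strand) and chr6:37529923-37530172 (plus strand).
Sult1e1: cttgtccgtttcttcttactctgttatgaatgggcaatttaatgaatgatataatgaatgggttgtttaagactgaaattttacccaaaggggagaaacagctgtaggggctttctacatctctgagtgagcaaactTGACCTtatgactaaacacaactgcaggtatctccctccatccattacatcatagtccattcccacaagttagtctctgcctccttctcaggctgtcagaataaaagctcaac
Hsd17b6: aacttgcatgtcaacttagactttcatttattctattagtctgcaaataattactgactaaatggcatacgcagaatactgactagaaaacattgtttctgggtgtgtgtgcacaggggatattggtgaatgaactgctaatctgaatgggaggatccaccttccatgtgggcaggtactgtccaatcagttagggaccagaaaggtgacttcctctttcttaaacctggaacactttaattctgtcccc
Akr1d1: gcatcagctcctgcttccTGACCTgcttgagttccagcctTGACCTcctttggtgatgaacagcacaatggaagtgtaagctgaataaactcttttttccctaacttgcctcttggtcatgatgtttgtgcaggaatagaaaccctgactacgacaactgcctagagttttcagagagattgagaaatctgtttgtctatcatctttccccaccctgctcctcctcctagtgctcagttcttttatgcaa
The *Sult1e1* window held 1 match of AGGTCA, which began 113 bases before the start, and the *Akr1d1* window held 2, which began 232 and 210 bases before it. The *Hsd17b6* window held none of the motifs searched, and the same was true of a second RefSeq start of that gene. Of 32851 mouse promoters of 300 bases (250 before and 50 after the start), 16.3% held AGGTCA on either strand. Other motifs were also searched on both strands. AGAACA (an arm of the glucocorticoid response element) occurred in 19.0% of promoters and TTATGTAA (DBP type) in 0.938%. Neither had a match in the 7 members with a promoter sequence. *Hsd17b2* and *Cyp7b1* had no such sequence and were not searched. TTCNNNGAA (STAT5 type, in 8.3%) had 1 match, in *Hsd3b7*, 21 bases before its start, where it read TTCCTGGAA. The RefSeq start lay 17 bases from the start of the transcript kept in the data for *Sult1e1*, at the same base for *Akr1d1*, and 6933 bases away for *Hsd17b6*. For *Hsd3b5* it lay 15282 bases away. The search thus did not cover the start of the kept transcript of *Hsd17b6* or *Hsd3b5*. A match describes letters only, and whether any factor binds there was not measured.

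The 4 liver libraries held 20471247 to 20940660 expected counts, so that 3 counts, taken as the floor of detection, equalled 0.143 to 0.147 CPM. Hepatocyte markers (5 of 6 had an entry) summed to 65070 and 87938 CPM under vehicle in GRfl/fl and GR-mKO mice, respectively. Under CORT they summed to 95325 and 126117 CPM. *Alb* made up most of each sum, at 49853 to 111499 CPM. *Apoa1* went the other way, at 6185.7 and 2554.5 CPM in vehicle- and CORT-treated GRfl/fl liver and 6749.6 and 4147 CPM in GR-mKO liver. Among other liver cells, Kupffer cell markers (4 of 4 measured) summed to 134 and 107 CPM under vehicle and to 40.8 and 63.6 CPM under CORT in GRfl/fl and GR-mKO mice, respectively. Endothelial markers summed to 84.75 and 80.9 CPM under vehicle and to 48.4 and 77.9 CPM under CORT, nearly level in GR-mKO mice. In GRfl/fl mice they were mixed. *Clec4g* fell from 54.2 to 24.1 CPM, *Pecam1* rose from 2.42 to 6.29 CPM, and the other 2 did not pass 2-fold. Stellate cell markers stayed between 130 and 167 CPM, and cholangiocyte markers between 4.30 and 19.0 CPM. The 4 muscle markers summed to 4.26 CPM in the liver of CORT-treated GR-mKO mice and to at most 0.621 CPM in the other 3 libraries, and the adipocyte markers to at most 2.86 CPM. Of 4 markers of steroid-producing glands, 2 were at 0 in every liver library and the sum was 2.53 to 3.82 CPM. The part of these other cells in the results was not tested, and in bulk tissue fewer cells of a type and less RNA per cell cannot be told apart. *Nr3c1* itself, which the Cre does not target in liver, was at 58.0 and 45.2 CPM in vehicle- and CORT-treated GRfl/fl liver and at 60.8 and 49.6 CPM in GR-mKO liver.

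Sulfation was the reaction whose gene changed most. *Sult1e1*, the estrogen sulfotransferase, which inactivates estradiol and estrone, was nearly absent from the liver of vehicle-treated mice and abundant after CORT. It was at 0.191 CPM (4 counts) in vehicle-treated GRfl/fl mice, 324 CPM in CORT-treated GRfl/fl mice, 0.193 CPM (4 counts) in vehicle-treated GR-mKO mice and 137 CPM in CORT-treated GR-mKO mice. Both CORT libraries were thus high, both vehicle libraries stood just above the floor of 3 counts, and the CORT library of GR-mKO mice was below that of GRfl/fl mice. The ratio of CORT to vehicle was 1695 (662 to 6227) in GRfl/fl liver and 710 (277 to 2604) in GR-mKO liver, with the wide intervals set by the 4 counts under vehicle. Under CORT, *Sult1e1* was 2.36-fold lower (2.26 to 2.47) in GR-mKO than in GRfl/fl liver. The gene spans chr5:87575969-87591594 (GRCm38, minus strand) in 8 exons, and no 31-base stretch of its 1242-base transcript occurred in another gene's transcripts.

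*Hsd17b6*, a short-chain dehydrogenase that oxidises androgen metabolites and can return androstanediol to dihydrotestosterone, moved the opposite way. It was at 119 CPM in vehicle-treated and 1.05 CPM in CORT-treated GRfl/fl liver, and at 122 CPM in vehicle-treated and 9.27 CPM in CORT-treated GR-mKO liver. The vehicle libraries were nearly equal between genotypes, and the CORT libraries were both low but unequal. *Hsd17b6* fell 113-fold (72.9 to 177) with CORT in GRfl/fl and 13.1-fold (11.4 to 15.3) in GR-mKO liver, so that under CORT it was 8.79-fold higher (5.52 to 14.1) in GR-mKO than in GRfl/fl liver. The gene lies at chr10:127990936-128007611 (minus strand), and its kept transcript of 1392 bases has 5 exons. It shared 16.0% of its 31-base stretches with *Rdh16f1*, a retinol dehydrogenase gene that was listed at 0 in all 4 liver libraries.

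**Figure D1:**
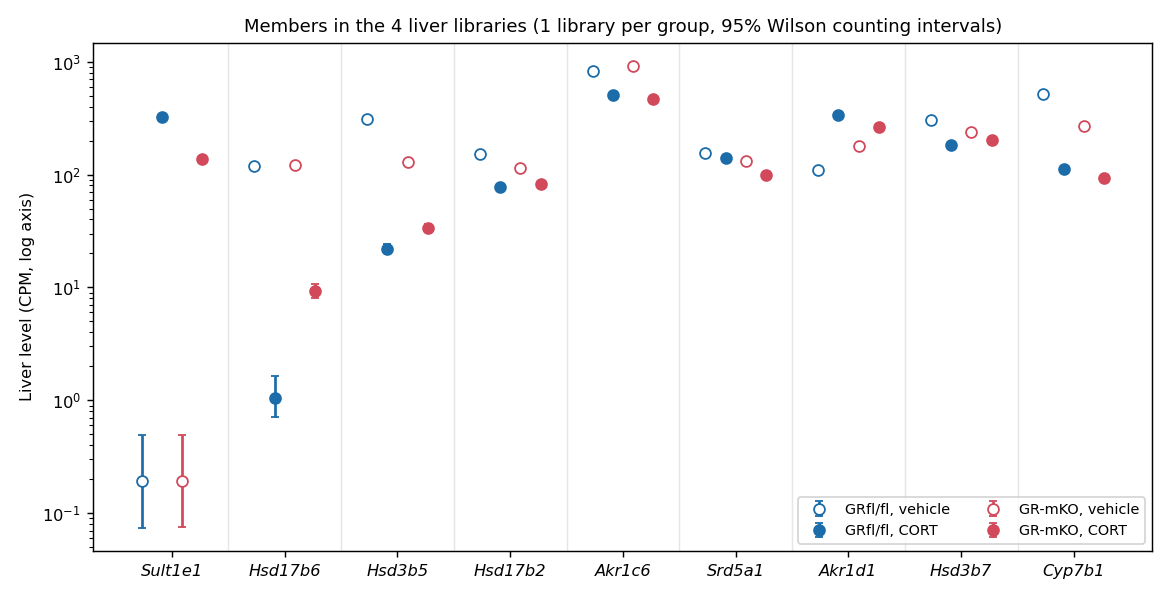
Level of each of the 9 measured members (CPM, log axis) in the 4 liver libraries, with open points for vehicle, filled points for CORT, blue for GRfl/fl and red for GR-mKO; bars are 95% Wilson counting intervals. *Sult1e1* lies near 0.19 CPM in both vehicle libraries and at 324 and 137 CPM in the CORT libraries, while *Hsd17b6* drops from 119 and 122 CPM to 1.05 and 9.27 CPM.

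Among the other dehydrogenases and keto-reductases, *Hsd3b5* fell in both genotypes, and *Hsd17b2* and *Akr1c6* were lower under CORT by less than 2-fold. *Hsd3b5* encodes a hepatic member of the HSD3B family that acts as a keto-steroid reductase on active androgens and is typical of male mouse liver. It was at 309 CPM in vehicle-treated and 22.1 CPM in CORT-treated GRfl/fl liver, and at 129.5 and 33.8 CPM in the corresponding GR-mKO libraries. The vehicle-treated GRfl/fl library stood highest and both CORT libraries lowest. The fall was 14.0-fold (12.7 to 15.4) in GRfl/fl liver and 3.83-fold (3.52 to 4.16) in GR-mKO liver, and under vehicle *Hsd3b5* was already 2.39-fold lower (2.28 to 2.50) in GR-mKO. Of its 31-base stretches 29.5% occurred in other genes, mostly in *Hsd3b4* (25.6%), which did not exceed 0.098 CPM. Its gene lies at chr3:98618634-98630252 (minus strand), with 3 exons in the kept transcript.

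*Hsd17b2* (chr8:117701904-117759027, plus strand) oxidises estradiol and testosterone to weaker hormones. It was at 152 and 77.5 CPM in vehicle- and CORT-treated GRfl/fl liver and at 113 and 81.7 CPM in GR-mKO liver. Its log2 change with CORT was -0.97 in GRfl/fl mice, just short of 2-fold, and -0.47 in GR-mKO mice. *Akr1c6* (chr13:4434306-4457877, plus strand) encodes the estradiol dehydrogenase of the aldo-keto reductase family that is abundant in mouse liver. *Akr1c6* was at 824 and 502 CPM in vehicle- and CORT-treated GRfl/fl liver and at 906 and 469.9 CPM in GR-mKO liver. Its log2 changes were -0.72 and -0.95, and scaling by TMM or by the median of ratios brought the latter to -1.02 and -1.01, past 2-fold. It shared 8.20% of its 31-base stretches with *Akr1c20*, which was at 44.7 to 58.0 CPM.

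The ring reductases did not move together. *Akr1d1*, the 5-beta-reductase that clears glucocorticoids and other keto-steroids and acts in bile acid synthesis, was at 110.1 CPM in vehicle-treated and 339.9 CPM in CORT-treated GRfl/fl liver, and at 179.7 and 263.6 CPM in GR-mKO liver. Both CORT libraries were above both vehicle libraries, and the gap was wider in GRfl/fl mice. The rise was 3.09-fold (2.94 to 3.24) in GRfl/fl mice, whereas the ratio in GR-mKO mice, 1.47 (1.41 to 1.53), did not reach 2-fold. *Srd5a1*, the 5-alpha-reductase, which reduces testosterone as well as corticosterone, was at 155 and 140.1 CPM in vehicle- and CORT-treated GRfl/fl liver and at 132 and 98.3 CPM in GR-mKO liver. It had the smallest CORT change of the members in GRfl/fl mice, -0.14 on the log2 scale, and was at -0.42 in GR-mKO mice. *Akr1d1* is at chr6:37530173-37568815 (plus strand) and *Srd5a1* at chr13:69573449-69611442 (minus strand), and neither shared a 31-base stretch with another gene.

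The remaining pair acts on oxysterols and bile acid precursors. *Cyp7b1*, the P450 that hydroxylates oxysterols and dehydroepiandrosterone in the alternative route to bile acids, was at 514 and 113 CPM in vehicle- and CORT-treated GRfl/fl liver and at 268 and 93.8 CPM in GR-mKO liver. The order of the libraries was that of treatment first and genotype second, and GRfl/fl was above GR-mKO under either treatment. *Cyp7b1* fell 4.55-fold (4.35 to 4.76) in GRfl/fl liver and 2.86-fold (2.71 to 3.01) in GR-mKO liver. Under vehicle it was 1.92-fold lower (1.86 to 1.98) in GR-mKO than in GRfl/fl liver, which did not reach 2-fold. *Hsd3b7*, which acts on the sterol ring in bile acid synthesis, was at 304 and 183 CPM in GRfl/fl and at 240.5 and 203 CPM in GR-mKO liver, with log2 changes of -0.73 and -0.24. *Cyp7b1* lies at chr3:18071950-18243338 (minus strand) and *Hsd3b7* at chr7:127800604-127803802 (plus strand).

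In all, 5 of the 9 measured members passed 2-fold with CORT in GRfl/fl liver, where 11.6% of the 12485 entries did. *Sult1e1* and *Akr1d1* were the 2 that rose, against 5.90% of all entries, and *Hsd17b6*, *Hsd3b5* and *Cyp7b1* were the 3 that fell, against 5.72%. In GR-mKO liver 4 of 9 passed, against 5.61% of entries, namely *Sult1e1*, which rose (2.80% of entries did), and *Hsd17b6*, *Hsd3b5* and *Cyp7b1*, which fell (2.82%). Since the list was drawn from these comparisons, nothing is read from the gap between the members and the other entries. The members' median log2 change was -0.73 in GRfl/fl and -0.47 in GR-mKO liver, beside 0.00 and 0.05 over all entries. Nearest to the 2-fold line were *Cyp7b1* in GR-mKO mice (-1.51) on the inside and *Hsd17b2* in GRfl/fl mice (-0.97) on the outside.

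**Figure D2:**
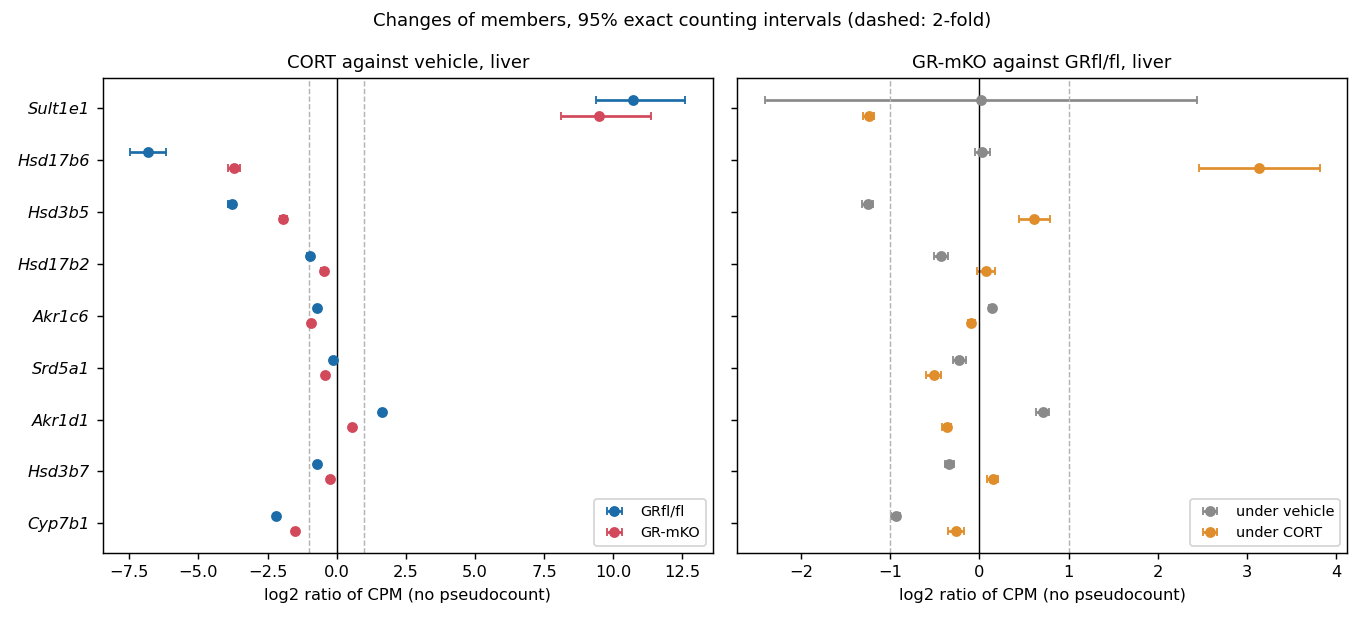
Log2 ratio of CPM without a pseudocount for each member, for CORT against vehicle in GRfl/fl (blue) and GR-mKO (red) liver on the left, and for GR-mKO against GRfl/fl under vehicle (grey) and under CORT (orange) on the right; bars are 95% exact counting intervals and dashed lines mark 2-fold. The red points of *Hsd17b6*, *Hsd3b5* and *Akr1d1* lie closer to 0 than the blue ones, and in the right panel *Hsd17b6* under CORT lies farthest to the right.

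The response to CORT was also compared between genotypes, by the difference of the log2 changes (GR-mKO minus GRfl/fl), which with single libraries could not be tested. The direction of the CORT change was shared by both genotypes for 9 of 9 members, against 62.9% of the 12485 entries. Over all entries the median absolute log2 change with CORT was only 0.32 in GRfl/fl and 0.25 in GR-mKO liver. Nothing is read from the gap in shared direction, since the members were picked for their CORT changes. The change was smaller in GR-mKO mice for 7 of the 9, against 60.2% of all entries and 92.5% of the 1451 entries that passed 2-fold in GRfl/fl mice, which, like the members, were picked for a large change there. *Hsd17b6* and *Hsd3b5* differed most, by 2.62 and 1.85, with counting intervals without the pseudocount of 2.46 to 3.75 and 1.69 to 2.05. *Akr1d1* differed by -1.07 (-1.16 to -0.98) and *Sult1e1* by -1.24, with an interval of -3.26 to 0.74 that included 0 because of the low vehicle counts. *Cyp7b1*, *Hsd17b2* and *Hsd3b7* differed by 0.67, 0.50 and 0.48. The exceptions were *Srd5a1* and *Akr1c6*, which were lowered further in GR-mKO mice (differences of -0.28 and -0.23).

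Between genotypes, 1 of 9 members passed 2-fold under vehicle, *Hsd3b5* (lower in GR-mKO), where 2.30% of entries did. Under CORT, 2 of 9 passed, *Hsd17b6* (higher in GR-mKO) and *Sult1e1* (lower), where 4.72% of entries did. The median log2 difference of the members was -0.23 under vehicle and -0.09 under CORT, beside 0.03 and 0.07 over all entries. *Sult1e1* and *Hsd17b6* differed little between the vehicle-treated genotypes (log2 differences of 0.00 and 0.03), although for *Sult1e1* the interval of the ratio, 0.188 to 5.43, left room for a several-fold difference. These comparisons share libraries with those of CORT against vehicle, so they are not independent of them.

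Levels can be compared between genes only after division by transcript length, as CPM per kilobase. The length used was that of the kept transcript. Whether values were summed over a gene's transcripts was not settled. The order is therefore approximate for genes with several, such as *Hsd3b7* and *Hsd17b6* with 7 and 6 coding transcripts. In vehicle-treated GRfl/fl liver *Akr1c6* led with 590 CPM per kilobase, followed by *Cyp7b1* (237), *Hsd3b5* (199.5), *Hsd3b7* (166), *Hsd17b2* (115.5), *Hsd17b6* (85.5), *Srd5a1* (58.5), *Akr1d1* (40.8) and *Sult1e1* (0.154). In CORT-treated GRfl/fl liver *Akr1c6* still led (359), but *Sult1e1* was next (261), then *Akr1d1* (126) and *Hsd3b7* (100.2), and *Hsd17b6* came last (0.757). *Hsd17b2*, *Srd5a1* and *Cyp7b1* were close to each other in that library, at 58.7, 53.0 and 52.1 CPM per kilobase. In CORT-treated GR-mKO liver *Akr1c6* stood at 337, *Hsd3b7* and *Sult1e1* were nearly level at 111 and 110.4, and *Hsd17b6* was again last at 6.66 CPM per kilobase. With single libraries, the spread that would separate such neighbours in the order is unknown.

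Outside the liver most members were at or near the floor. In gonadal white adipose tissue (WAT), the GRfl/fl levels of *Sult1e1* were 35.8 CPM under vehicle and 16.7 CPM under CORT, and its GR-mKO levels were 36.0 and 19.0 CPM. Which cells of WAT held it was not measured. *Sult1e1* thus fell in GRfl/fl WAT, by 2.14-fold (1.88 to 2.44), and was 1.90-fold lower (1.67 to 2.15), short of 2-fold, in GR-mKO WAT, whereas it had risen in liver. In gastrocnemius *Sult1e1* was at 0.196 to 0.548 CPM. *Hsd3b7* was at 104 and 62.4 CPM in vehicle- and CORT-treated GRfl/fl WAT, at 111 and 62.1 CPM in GR-mKO WAT, and at 8.06 to 11.8 CPM in gastrocnemius. *Srd5a1* was at 1.72 to 2.42 CPM in WAT and 0.618 to 1.40 CPM in gastrocnemius, and *Cyp7b1* did not exceed 0.802 CPM in either tissue. The other 5 members did not exceed 0.247 CPM in WAT. In gastrocnemius they did not exceed 0.345 CPM except for *Akr1c6* at 2.07 CPM and *Akr1d1* at 1.18 CPM in CORT-treated GR-mKO mice, where hepatocyte markers summed to 231 CPM against 5.29 to 69.7 CPM in the other gastrocnemius libraries. The part of liver-type RNA in those values was not tested.

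**Figure D3:**
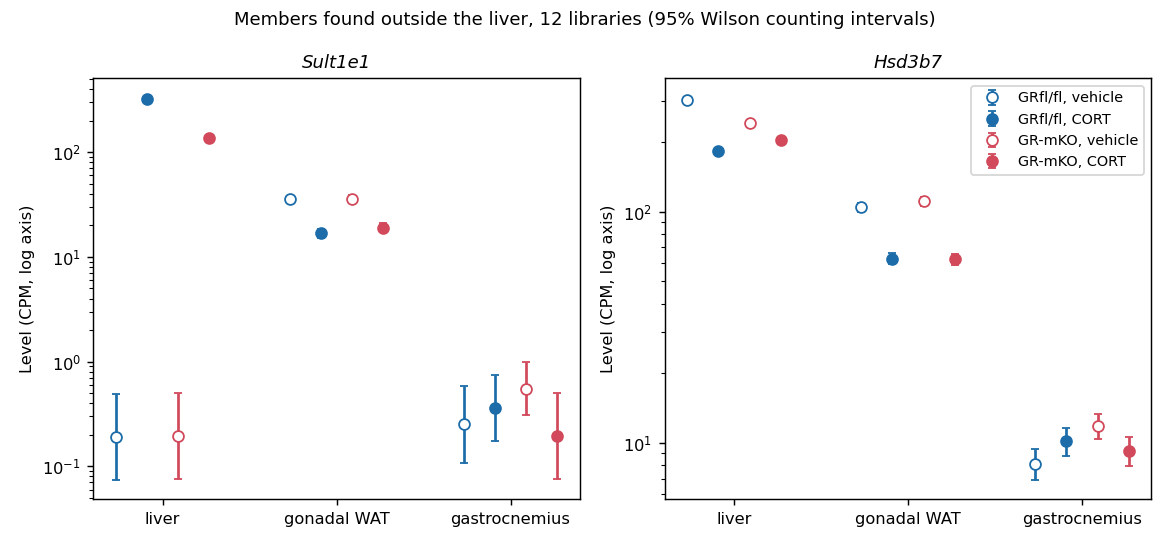
Levels (CPM, log axis) of *Sult1e1* on the left and *Hsd3b7* on the right in the 12 libraries of liver, gonadal WAT and gastrocnemius; open points are vehicle, filled points CORT, blue GRfl/fl and red GR-mKO, with 95% Wilson counting intervals. *Sult1e1* is higher under CORT in liver and lower under CORT in gonadal WAT, and *Hsd3b7* is lower under CORT in both tissues.

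The genes that flank the lead members were examined next. On one side of *Sult1e1*, 6942 bases away, lies *Sult1d1*, a related sulfotransferase. *Sult1d1* rose to 391 CPM from 94.7 CPM in GRfl/fl liver and to 336 CPM from 144 CPM in GR-mKO liver (log2 changes of 2.04 and 1.22). Beyond it, *Sult1b1* was at 25.1 and 36.5 CPM in GRfl/fl and at 26.0 and 25.5 CPM in GR-mKO liver, and on the other side the casein genes *Csn1s1* and *Csn2* were listed at 0 throughout. Beside *Hsd17b6*, the related dehydrogenases *Rdh7* and *Sdr9c7* did not fall with it. *Rdh7* had log2 changes of -0.02 in both genotypes at 788 to 813 CPM, and *Sdr9c7* was at 36.0 and 71.0 CPM in GRfl/fl and at 36.8 and 56.5 CPM in GR-mKO liver. On the far side *Naca* had log2 changes of -0.16 and -0.01, and *Prim1* was at 0.928 to 2.02 CPM.

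The pattern of each lead gene over the 4 liver libraries was compared with that of the other entries by Euclidean distance between centred log2 values. Among the closest to *Sult1e1* were *Cyp2b10*, a drug-inducible P450, at a distance of 1.54, and *Cyp17a1*, the hydroxylase and lyase of androgen synthesis, at 2.09. *Cyp2b10* was at 3.30 and 877 CPM in GRfl/fl and at 6.10 and 362 CPM in GR-mKO liver, lower in GR-mKO under CORT as *Sult1e1* was. Closest to *Hsd17b6* were *Igfbp2*, an insulin-like growth factor binding protein (1.43), *Adgrf1*, an adhesion receptor (1.75), and *H2-Aa*, a class II antigen-presentation gene (1.82). *Igfbp2* was at 390.1 and 15.8 CPM in GRfl/fl and at 473 and 29.5 CPM in GR-mKO liver. Only 4 libraries underlie these distances, and many genes that differ mainly by treatment will lie close.

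Related enzymes that are not members were taken from fixed lists. Of the other HSD3B genes, 2 of 7 listed were above 0 in all 4 libraries and neither passed 2-fold with CORT in either genotype (medians of -0.76 and -0.27 in GRfl/fl and GR-mKO liver). Of the other HSD17B and HSD11B genes, 8 of 12 were measured and none passed, with medians of 0.26 and 0.18. The list includes *Hsd11b1*, which regenerates active glucocorticoid, at 164 and 291 CPM in GRfl/fl and 211 and 286 CPM in GR-mKO liver. Of the other SRD5A and AKR1C genes, 7 of 10 were measured and none passed either (-0.05 and -0.18). The medians over all entries were 0.00 and 0.05, and 11.6% and 5.61% of entries passed 2-fold.

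Sulfotransferases and the enzymes of their cofactor were mixed. Of 19 listed besides *Sult1e1*, 9 were measured. Of these, 3 rose and 2 fell in GRfl/fl liver, and 2 rose and 3 fell in GR-mKO liver (medians of 0.53 and -0.05). Over all entries, 5.90% rose and 5.72% fell in GRfl/fl liver, and 2.80% rose and 2.82% fell in GR-mKO liver. *Sult1d1*, described above, was the largest rise in GRfl/fl liver but not in GR-mKO liver. The largest fall was that of *Sult2a8*, a hepatic sulfotransferase, which dropped to 177 CPM in both genotypes, from 419 CPM in GRfl/fl liver and 482 CPM in GR-mKO liver. Of 21 P450 genes of steroid and sterol metabolism, 16 were measured. Of these, 8 rose and none fell in GRfl/fl liver (median of 1.06), beside the same shares of all entries. In GR-mKO liver 6 rose and 1 fell (median of 0.61). *Cyp17a1* rose most, reaching 279 CPM from 1.53 CPM in GRfl/fl liver and 248 CPM from 3.87 CPM in GR-mKO liver.

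Lists of genes known for a sex difference in mouse liver were counted as well, all animals here being male. Of 10 male-biased genes, all measured, 4 fell and none rose in GRfl/fl liver, and 6 fell and none rose in GR-mKO liver (medians of -0.55 and -1.18). Over all entries, 5.72% fell and 5.90% rose in GRfl/fl liver, and 2.82% fell and 2.80% rose in GR-mKO liver. The medians of all entries were 0.00 and 0.05. *Cyp4a12a*, a fatty acid hydroxylase, fell to 210 CPM from 689 CPM in GRfl/fl liver and to 198 CPM from 502 CPM in GR-mKO liver. Of 16 female-biased genes only 7 were above 0 in all 4 libraries. Of these, 6 rose in GRfl/fl and 7 in GR-mKO liver (medians of 3.64 and 3.90), beside the same shares of all entries. *Cyp17a1*, given above, was among those that rose. The other 9 female-biased genes were at 0 in at least 1 library and were left out, and 4 of the 7 (*Cyp17a1*, *Cyp2a4*, *Cyp39a1* and *Cyp3a41a*) also belong to the P450 list. The lists were set with earlier results known, so these counts lend no independent weight to a direction.

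**Figure D4:**
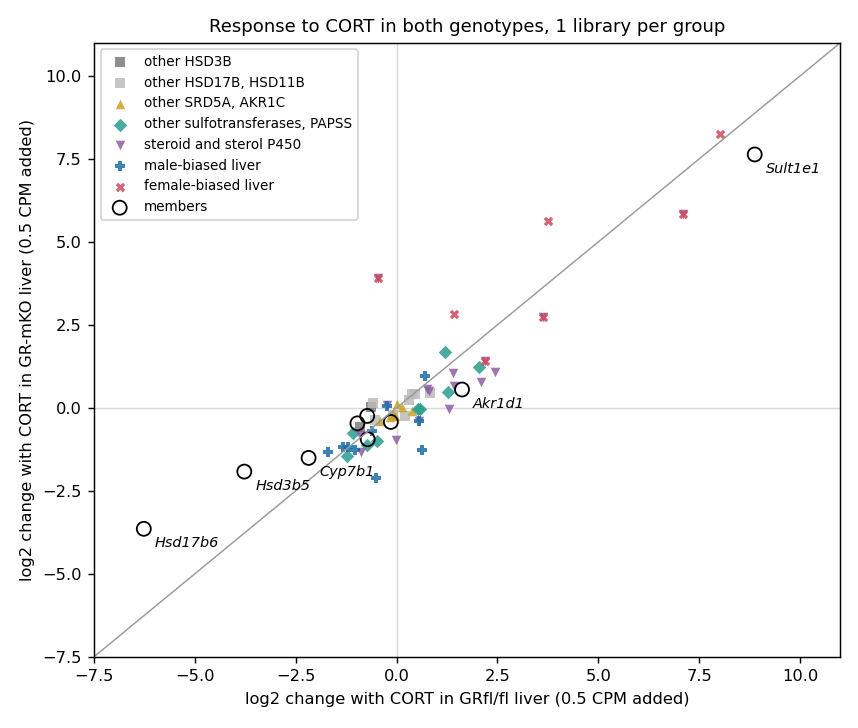
Log2 change with CORT in GRfl/fl liver (horizontal) against that in GR-mKO liver (vertical), after 0.5 CPM was added, for the 9 members (open circles) and the genes of the lists of related enzymes and sex-biased genes (coloured symbols); the diagonal marks equal change. *Sult1e1* and *Hsd17b6* lie at the opposite ends at 8.88 and -6.26, with *Cyp17a1* at 7.11 and 5.83 toward the *Sult1e1* end.

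Of 16 receptors and regulators of such genes, 15 were measured. *Ppara*, the fatty acid receptor, fell in GRfl/fl liver (32.4 to 13.0 CPM) and was at 29.9 and 19.7 CPM in GR-mKO liver. *Nr0b2*, a repressor in bile acid control, fell from 23.2 to 10.9 CPM in GRfl/fl liver and was at 39.7 and 33.8 CPM in GR-mKO liver, and under CORT it was higher in GR-mKO by 1.58 on the log2 scale. *Bcl6*, a transcriptional repressor, fell in GR-mKO liver (39.9 to 6.38 CPM), and its levels in GRfl/fl liver were 35.5 and 23.6 CPM. *Nr3c1*, which belongs to the same list, passed 2-fold in none of the 4 comparisons.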

How the data were processed

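Liver, gastrocnemius and gonadal WAT of the same 4 groups gave 12 libraries, each from 1 RNA pool of 3 mice. The authors quantified paired reads of 100 bases with Salmon 1.2.1 on protein-coding transcripts of GENCODE M20 (mm10, that is GRCm38), imported them with tximport (lengthScaledTPM) in R 3.5.0, and kept 1 entry per gene symbol. The deposited values are expected counts, which need not be whole and were not scaled between libraries. Each entry bears a transcript identifier, and whether values were summed over genes was not settled. The same transcript was kept in all 3 tissues for the 9 members. The 12 libraries held 19394572 to 20940660 counts.

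CPM were computed from library totals, and log2 changes after 0.5 CPM was added, over entries above 0 in all 4 liver libraries. Intervals used counts rounded to whole numbers and cover counting error only (95% Wilson for CPM, exact Clopper-Pearson for ratios, and counting variances for differences of changes). With 1 library per group, a 2-fold rule replaced a test. The study's NOISeq was rewritten as an alternative (5 simulated libraries at 20% of the depth, variability 0.02, probability 0.9). Other alternatives were a fold of 1.5, pseudocounts of 0.1 and 1 CPM, no filter or a mean of at least 1 CPM, TMM factors (edgeR 4.0.16) and median-of-ratios factors (DESeq2 1.42.0), both in R 4.3.3. The scripts were tested on simulated data and used Python 3.11.15, matplotlib 3.10.9, numba 0.67.0, scipy 1.17.1, pandas 2.3.3 and numpy 2.4.6. Positions and shared 31-base stretches came from GENCODE M21, which held all 22252 liver entries, and promoters from RefSeq.

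The members, gene lists and markers were chosen with earlier results of these data known. Beside the members, the rule named, per list, the largest rise and fall with CORT in GRfl/fl liver among genes past 2-fold with a mean of at least 1 CPM, every regulator past 2-fold in any comparison, the nearest 2 protein-coding genes on each side of each lead gene, and the 3 genes closest in pattern to it. *Nr3c1*, *Hsd11b1*, single marker genes, the genes sharing sequence with members, and the genes of the closing observations were added outside the rule. Of the genes this rule named, 2 are not reported here.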

Additional observations from a re-analysis of the deposited data

Results flagged for a closer look

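*Sult1e1* moved in opposite directions with CORT in liver and in gonadal WAT. Its log2 change was 8.88 in GRfl/fl and 7.63 in GR-mKO liver, and -1.08 in GRfl/fl and -0.90 in GR-mKO WAT. With 1 library per group, the difference between tissues was not tested.

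The genotype difference (GR-mKO against GRfl/fl) had opposite signs under vehicle and under CORT for 4 members, and these differences were not tested either. For *Hsd3b5* it was -1.25 under vehicle and 0.60 under CORT, and for *Hsd3b7* it was -0.34 and 0.15. For *Akr1d1* it was 0.70 and -0.37, and for *Akr1c6* it was 0.14 and -0.094. Of these values only the vehicle difference of *Hsd3b5* passed 2-fold.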

How the results depend on the processing

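With 1 library per group, no replicate could be left out and the spread between pools of mice is unknown. No paired analysis was possible because each group had a single library and the labels carry no replicate numbers. With a fold of 1.5, 8 members passed with CORT in GRfl/fl liver in place of 5, and 3 between genotypes under vehicle in place of 1. NOISeq called the same members as the 2-fold rule in each comparison. Pseudocounts of 0.1 and 1 CPM left all 36 member changes on the same side of 2-fold, although they moved the values of *Sult1e1* and *Hsd17b6* by up to 1.25. TMM and median-of-ratios factors shifted the members by at most 0.08 and the median of all entries by at most 0.07. Under either, *Akr1c6* passed 2-fold with CORT in GR-mKO liver, which made 5 members, and the near-zero genotype differences of *Sult1e1* under vehicle and *Hsd17b2* under CORT changed sign. Over all entries, the 4 counts past 2-fold (1451, 701, 287 and 589) became 3391, 2215, 1238 and 2064 with a fold of 1.5 and 629, 280, 71 and 177 with NOISeq. A pseudocount of 0.1 CPM gave 1184, 670 and 1152 for the last 3 and no filter gave 1143, 657 and 982. A pseudocount of 1 CPM gave 183 and 392 for the genotype comparisons, and a mean of at least 1 CPM gave 461 under vehicle. Between genotypes under CORT, entries higher and lower in GR-mKO numbered 305 and 284, but 251 and 328 with TMM and 252 and 329 with median-of-ratios factors. The cause was not tested.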

Other observations

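Further genes of sulfation, picked after their values were seen, are given as values. *Sult1a1*, the phenol sulfotransferase, was at 179.95 and 436 CPM in vehicle- and CORT-treated GRfl/fl liver and at 289 and 404 CPM in GR-mKO liver, with log2 changes of 1.28 and 0.48. *Papss2*, which makes the sulfate donor, was at 155 and 109.7 CPM in GRfl/fl and at 208 and 104 CPM in GR-mKO liver, with the latter change just past 2-fold. *Cyp39a1*, an oxysterol hydroxylase like *Cyp7b1*, was at 4.81 and 65.7 CPM in GRfl/fl and at 9.67 and 67.4 CPM in GR-mKO liver. It rose in both genotypes, with log2 changes of 3.64 and 2.74, where *Cyp7b1* fell.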
